A study of Mus musculus with 23 samples.

Results

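The cytosolic ribosomal proteins are the protein part of the ribosomes that translate nuclear mRNAs. They were taken as the probe sets that the platform annotation assigns to exactly 1 gene, with a symbol made of Rpl, Rps or Rplp, a number and at most a closing a, x or l, or with the symbol Rpsa. The rule found 96 of the 22626 probe sets, for 45 of the 12393 genes named by such probe sets. Of the 45, 21 belong to the small subunit, 22 to the large subunit and 2 (Rplp0 and Rplp2) to the stalk. Of these genes, 23 had 1 probe set and 22 had more, up to 6.

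RNA came from *longissimus dorsi* (LD), a back muscle that holds the spine upright, and from tongue (TN). The mice were male, C57/BL6 by the sample labels and C57BL/N6 by the design text, and carried no engineered allele that the labels name. BF mice were flown for 30 days aboard the Bion M1 biosatellite, BG mice spent 30 days on the ground in the same habitat, and FC mice spent 30 days in a standard animal facility. There were 5 arrays per group in LD, and 3 BF, 3 BG and 2 FC arrays in TN. Tissue of BF mice was sampled after landing, per the study's methods, so flight, landing and the time after it cannot be told apart. Whether LD and TN of the same number came from 1 mouse is not stated. All values are log2 intensities, normalized by the authors with the RMA method, so that 1 unit stands for a doubling of the signal. Whether fewer cells of a type or less RNA per cell lies behind a lower value cannot be told apart in whole tissue.

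A ribosome carries each of its core proteins in a single copy, apart from the stalk, and the cell therefore makes them in matched amounts. Their mRNAs are among the most abundant of any cell. Most of them begin with a 5′ terminal oligopyrimidine (TOP) tract, a C followed by a run of C and T, through which the kinase complex mTORC1 and the protein Larp1 control their translation. In skeletal muscle, ribosome content is one of the factors that set the capacity for protein synthesis, and growth or wasting of muscle is usually accompanied by a change in it.

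The annotated starts of some of the genes that carry the results below are shown to let the TOP tract be seen. Each line gives 10 bases before and 20 from the annotated start (RefSeq, GRCm38.p6), 5′ to 3′. Where several entries exist, the first is shown. Capitals mark a C followed by at least 4 bases that are each C or T, with the C nearest to the start and within 10 bases of it, extended to any C directly before it.
Rpl35 (chr2:39005112-39005141, minus strand): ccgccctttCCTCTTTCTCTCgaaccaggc
Rps18 (chr17:33955646-33955675, minus strand): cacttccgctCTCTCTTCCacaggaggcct
Rps26 (chr10:128626487-128626516, minus strand): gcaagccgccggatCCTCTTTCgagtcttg
Rps27l (chr9:66946076-66946105, plus strand): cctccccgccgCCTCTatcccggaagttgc
Rpl13a (chr7:45128726-45128755, minus strand): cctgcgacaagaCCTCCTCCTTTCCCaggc
Rpl14 (chr9:120571507-120571536, plus strand): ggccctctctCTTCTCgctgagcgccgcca
Rps6 (chr4:86857348-86857377, minus strand): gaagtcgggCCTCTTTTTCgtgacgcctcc
Rplp2 (chr7:141447641-141447670, plus strand): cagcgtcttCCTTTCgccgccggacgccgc
Rpl11 (chr4:136053374-136053403, minus strand): ccataaggccacggggccggaagtctccct
Rps15 (chr10:80292421-80292450, plus strand): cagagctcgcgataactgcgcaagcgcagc
Rpl3l (chr17:24727816-24727845, plus strand): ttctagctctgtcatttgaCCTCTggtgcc
The tract was at or near the start in Rpl35, Rps18, Rps26, Rps27l, Rpl13a, Rpl14, Rps6 and Rplp2. It began within 10 bases of the start in neither Rpl11 nor Rps15, although a run of C and T closes the window of Rpl11. In Rpl3l it began 9 bases downstream of the annotated start. Rps19, Rpsa, Rpl22, Rpl41 and Rplp0, named below but not shown, had no tract within 10 bases of the start in their first entry. Later entries of Rps19 and Rpl22 had one, as had the first entries of Rpl10a and Rps7, also not shown. Of the 45 genes, 39 had an entry in the table of starts. Rps20, Rps4l, Rps29, Rps14, Rpl8 and Rpl7 had none. Counted was a C followed by at least 4 bases that are each C or T, including a C inside a longer run. Such a C lay exactly at an annotated start in 8 of the 39 (20.5%), against 3.01% of 27025 genes of the table. It lay within 5 bases of a start in 19 (48.7%), against 21.2% of all genes. Within 10 bases it lay in 26 (66.7%), against 34.4%. The hexamer CCGGAA, searched on both strands of the 300 bases around each start, was in 66.7% of the member genes and in 16.7% of all genes. The hexamer TATAAA, searched in the same way, was in 12.8% and 15.7%. On the opposite strand, CCGGAA opens with T and C and can overlap a tract. These are matches of letters, and the annotated start may differ from the start used in these muscles.

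The samples matched their labelled tissues. A mean over 14 markers of skeletal muscle fibres lay between 13.62 and 13.92 in the LD arrays and between 11.55 and 12.73 in the TN arrays. A mean over 10 markers of oral epithelium lay between 4.74 and 5.08 in LD and between 11.37 and 11.69 in TN, so the TN samples also held epithelium. The SD of an array around its group mean was highest, at 0.356, for BG LD 5, against 0.149 to 0.254 for the other LD arrays.

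To see whether flight or housing moved the ribosomal proteins, they were first followed array by array. The deviation of each member from its mean over the arrays of the muscle was taken, and the median over the 96 members is given. In LD it was 0.19, 0.13, -0.026, 0.14 and 0.26 in the BG arrays, against -0.11, -0.017, -0.066, -0.11 and -0.17 in BF and -0.023, -0.073, 0.045, -0.053 and -0.045 in FC. Thus 4 of the 5 BG arrays lay above every BF and FC array, while BG LD 3 lay within their range. In TN the 3 BG arrays were at 0.12, 0.089 and 0.069, above the 3 BF arrays (-0.092, 0.0086 and -0.092) and the 2 FC arrays (-0.061 and -0.054). Small and large subunits moved together in their medians, taken here over the 77 members at or above the median level of all probe sets. Over the 23 arrays, within groups, these medians had a Pearson r of 0.958, a description of arrays that share RNA and normalization. Single members among the 77 agreed less, with a median pairwise r of 0.344 and 78.6% of pairs above 0.

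**Figure D1:**
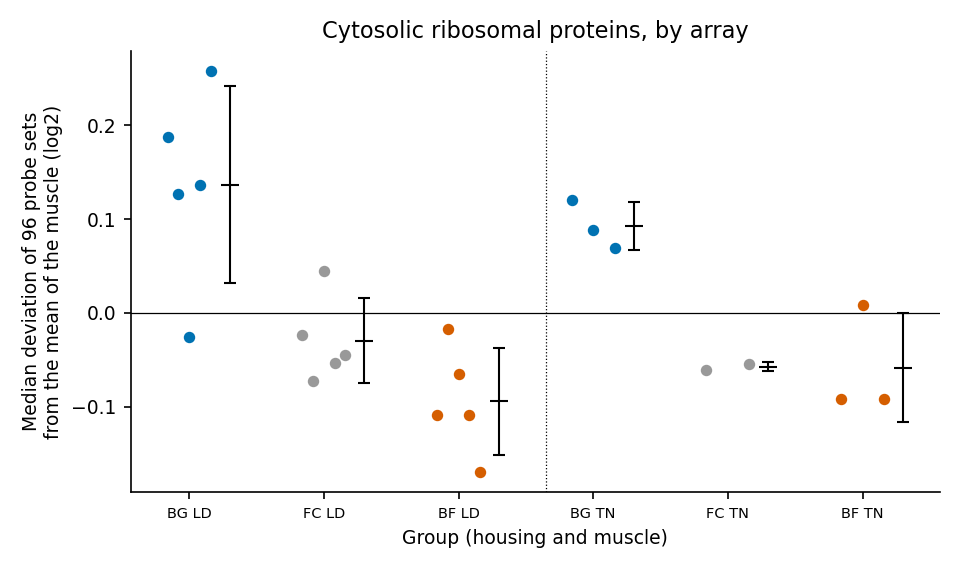
Median deviation of the 96 ribosomal protein probe sets from their means over the arrays of the same muscle (vertical axis, log2), by group. Each point is 1 array, and the bars give mean and SD of the group. In LD 4 of 5 BG arrays lie above all BF and FC arrays, and in TN all 3 BG arrays lie above all BF and FC arrays.

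In LD of flown mice, ribosomal protein mRNAs were lower than in BG. In BF vs. BG, 33 of the 96 probe sets (34.4%) passed an adjusted p of 0.05 as lower, for 22 of the 45 genes, and 0 passed as higher (1 at an unadjusted p under 0.05). Of all 22626 probe sets, 3.83% passed as lower and 6.41% as higher. The median log2 change of the members was -0.23, against -0.028 for all probe sets, and 84 of 96 estimates lay below 0. No member reached a change of 2-fold. All arrays of BF lay below all arrays of BG in 28 members, against 2.71% of all probe sets. Most members are bright, with 66 among the brightest 2263 probe sets. Of those 2263, 10.3% were lower, against 31 of the 66 members.

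The small subunit had 15 of 53 probe sets lower, for Rps3, Rps7, Rps10, Rps14, Rps15, Rps18, Rps19, Rps24, Rps26, Rps27l and Rpsa. The large subunit had 18 of 41 lower, for Rpl6, Rpl10a, Rpl11, Rpl12, Rpl13a, Rpl14, Rpl19, Rpl22, Rpl35, Rpl37a and Rpl41. Neither stalk protein passed. The difference between the subunits was not tested.

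Rps19, a small-subunit protein whose loss causes Diamond-Blackfan anaemia, had the smallest adjusted p. Its values in LD were 12.02, 12.01, 11.84, 11.86 and 12.05 in BG, 11.34, 11.59, 11.43, 11.42 and 11.25 in BF and 11.59, 11.34, 11.63, 11.50 and 11.65 in FC. Every BG array was above every BF and FC array. The log2 change was -0.55 (standard error 0.0858, adjusted p = 0.000421) in BF vs. BG, so that it decreased by 31.7%, and -0.41 (standard error 0.0858, adjusted p = 0.00595) in FC vs. BG. Rps15, which lies near the decoding site in the head of the small subunit, had the values 12.36, 12.15, 12.05, 12.07 and 12.26 in BG, 11.55, 11.82, 11.71, 11.77 and 11.63 in BF and 11.94, 11.63, 11.96, 11.74 and 11.84 in FC. Again BG did not overlap with the other groups. The change in BF vs. BG was -0.48 (standard error 0.0815, adjusted p = 0.000836). A second probe set of Rps15 gave 12.39, 12.32, 12.24, 12.30 and 12.40 in BG, 12.07, 12.02, 11.97, 12.01 and 11.88 in BF and 12.03, 11.76, 12.12, 11.97 and 12.09 in FC. It too was lower in BF vs. BG, by a log2 change of -0.34 (standard error 0.0753, adjusted p = 0.00625), and in FC vs. BG, by -0.34 (standard error 0.0753, adjusted p = 0.0092).

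Rpsa, a protein of the small subunit that is also known as a laminin receptor, had the values 12.73, 12.53, 12.47, 12.40 and 12.47 in BG, 12.18, 12.25, 12.07, 12.05 and 11.94 in BF and 12.41, 12.27, 12.32, 12.09 and 12.42 in FC. The BF arrays lay below all BG arrays, and FC overlapped with both. The change was -0.42 (standard error 0.0835, adjusted p = 0.00283) in BF vs. BG and -0.22 (standard error 0.0835, adjusted p = 0.101) in FC vs. BG. Its second probe set, at a mean of 3.10, was close to the bottom of the range and changed by -0.097 in BF vs. BG (adjusted p = 0.591). Rps26, which touches the mRNA where it leaves the small subunit, was at 12.61, 12.52, 12.40, 12.52 and 12.47 in BG, 12.22, 12.27, 12.30, 12.17 and 12.10 in BF and 12.35, 12.39, 12.40, 12.34 and 12.36 in FC. BF lay below BG and below FC in every array. The change was -0.29 (standard error 0.0667, adjusted p = 0.00816) in BF vs. BG, -0.13 (standard error 0.0667, adjusted p = 0.218) in FC vs. BG and -0.16 (standard error 0.0667, adjusted p = 0.238) in BF vs. FC.

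Rps18, of the head of the small subunit, was at 12.66, 12.60, 12.40, 12.63 and 12.73 in BG, 12.25, 12.38, 12.20, 12.28 and 12.05 in BF and 12.23, 12.07, 12.38, 12.26 and 12.40 in FC. BG LD 3, at 12.40, was the BG array nearest to the others. The change was -0.38 (standard error 0.0863, adjusted p = 0.00816) in BF vs. BG. A second bright probe set of the gene was at 12.83, 12.79, 12.65, 12.83 and 12.92 in BG, 12.49, 12.57, 12.46, 12.52 and 12.42 in BF and 12.45, 12.33, 12.54, 12.51 and 12.55 in FC, and changed by -0.33 (standard error 0.0755, adjusted p = 0.0103) in FC vs. BG. Of the 6 probe sets of Rps18, 3 were lower in BF vs. BG. The other 3, with means of 3.11 to 5.15 near the bottom of the range, changed by 0.032 to 0.055.

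Rps7, of the small subunit, was at 12.90, 12.83, 12.69, 12.91 and 12.79 in BG, 12.49, 12.62, 12.39, 12.54 and 12.42 in BF and 12.58, 12.37, 12.52, 12.41 and 12.52 in FC. BG was above the other groups in every array. The change was -0.33 (standard error 0.0799, adjusted p = 0.0109) in BF vs. BG and -0.34 (standard error 0.0799, adjusted p = 0.0107) in FC vs. BG. Both probe sets of the gene were lower in both comparisons.

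In the large subunit, Rpl35, which sits at the exit of the peptide tunnel, was at 12.67, 12.73, 12.51, 12.74 and 12.81 in BG, 12.15, 12.43, 12.31, 12.34 and 12.18 in BF and 12.28, 12.41, 12.47, 12.38 and 12.31 in FC. All BG arrays were above all BF and FC arrays. The change was -0.41 (standard error 0.0767, adjusted p = 0.00189) in BF vs. BG and -0.32 (standard error 0.0767, adjusted p = 0.0124) in FC vs. BG. Of its 6 probe sets, 5 were lower in BF vs. BG, and the log2 changes of all 6 lay between -0.41 and -0.35. In FC vs. BG 1 of the 6 was lower, with changes from -0.32 to -0.18. Rpl11, part of the 5S ribonucleoprotein and a binder of Mdm2, was at 12.23, 12.15, 11.94, 12.21 and 12.19 in BG, 11.73, 11.81, 11.72, 11.73 and 11.60 in BF and 11.66, 11.72, 11.87, 11.77 and 11.75 in FC. The groups BF and FC were below BG in every array. The changes were -0.43 (standard error 0.0805, adjusted p = 0.00195) in BF vs. BG and -0.39 (standard error 0.0805, adjusted p = 0.00575) in FC vs. BG.

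Rpl10a was at 12.48, 12.37, 12.33, 12.44 and 12.50 in BG, 12.01, 12.28, 12.16, 12.12 and 12.11 in BF and 12.14, 12.17, 12.26, 12.12 and 12.10 in FC, with no overlap of BG with the others. It changed by -0.29 (standard error 0.0683, adjusted p = 0.0103) in BF vs. BG and by -0.26 (standard error 0.0683, adjusted p = 0.02) in FC vs. BG, where the adjusted p was 0.0551 without BG LD 1. Rpl12, of the stalk base, had the largest decrease after Rps19 in BF vs. BG, with a log2 change of -0.50 (standard error 0.156, adjusted p = 0.0435) at a dimmer mean of 6.85. Rpl13a, widely used as a reference gene, was lower with 3 of 4 probe sets in BF vs. BG, with changes of -0.32 to -0.26 over all 4.

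**Figure D2:**
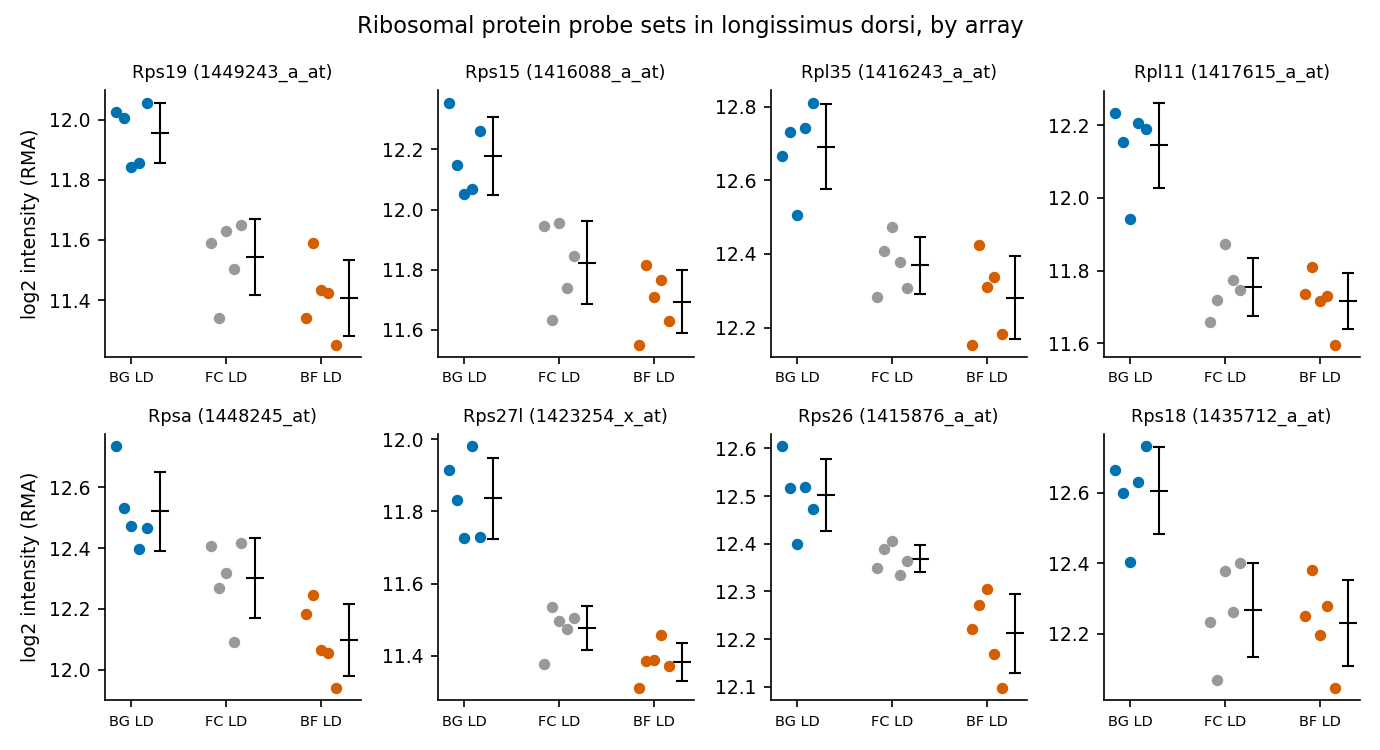
Log2 intensity (RMA, vertical axis) in LD of the 8 ribosomal protein genes with the smallest adjusted p in BF vs. BG, 1 probe set each. Each point is 1 array, and the bars give mean and SD (n = 5). All 5 BF arrays lie below all 5 BG arrays in each panel, and all FC arrays lie below all BG arrays in Rps19, Rps15, Rpl35, Rpl11, Rps27l and, narrowly, Rps18.

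Other members had estimates closer to 0. The 3 probe sets of Rps28 changed by -0.10 to -0.021 in BF vs. BG, the 3 of Rps29 by -0.19 to 0.018 and the 4 of Rps20 by -0.21 to 0.027. Rpl4 changed by -0.040, Rps2 by 0.039 and Rpl38 by -0.07, and none of these passed. Rps6, the substrate of the S6 kinases downstream of mTORC1, was at 9.12, 8.85, 8.60, 8.78 and 8.66 in BG, 8.45, 8.70, 8.44, 8.60 and 8.55 in BF and 8.51, 8.74, 8.77, 8.74 and 8.66 in FC. Of the BF arrays only BF LD 2 exceeded the lowest BG array, and FC overlapped with BG. The change did not pass, at -0.25 (standard error 0.0972, adjusted p = 0.101) in BF vs. BG and -0.12 (standard error 0.0972, adjusted p = 0.498) in FC vs. BG.

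The stalk proteins, which recruit the elongation factors to the ribosome, did not pass in either direction in LD. Rplp0 was at 13.15, 13.05, 12.97, 13.08 and 13.26 in BG, 13.02, 13.09, 13.11, 12.98 and 13.02 in BF and 13.02, 12.90, 13.02, 12.96 and 12.94 in FC. The groups overlapped, and the change was -0.06 (standard error 0.0667, adjusted p = 0.652) in BF vs. BG and -0.13 (standard error 0.0667, adjusted p = 0.222) in FC vs. BG. Rplp2 was at 12.61, 12.75, 12.80, 12.60 and 13.37 in BG, 13.08, 13.01, 13.06, 13.05 and 13.11 in BF and 12.99, 13.04, 13.27, 12.84 and 12.86 in FC. Here 4 of 5 BG arrays were below all BF arrays, and BG LD 5 was the highest of all. The change was 0.24 (standard error 0.117, adjusted p = 0.212) in BF vs. BG. The largest positive estimates in BF vs. BG, for 1 of 2 probe sets of Rpl27a (0.53, adjusted p = 0.127) and 1 of 3 of Rps9 (0.33, adjusted p = 0.358), did not pass either.

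In FC vs. BG, which compares both ways of housing on the ground, the members were also lower. In this comparison 18 of 96 probe sets (18.8%) for 14 genes were lower, against 2.16% of all probe sets, and 1 (Rpl22) was higher, against 6.79%. The median log2 change was -0.17, against -0.010 for all probe sets, and no member changed by 2-fold. All FC arrays lay below all BG arrays in 21 members, against 1.56% of all probe sets. Of the brightest 2263 probe sets 5.61% were lower, against 18 of the 66 members. The genes were Rps7, Rps10, Rps14, Rps15, Rps18, Rps19, Rps24, Rps27l, Rpl10a, Rpl11, Rpl13a, Rpl19, Rpl22 and Rpl35. BF vs. BG and FC vs. BG share the 5 BG arrays, so the decreases in both are not independent.

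**Figure D3:**
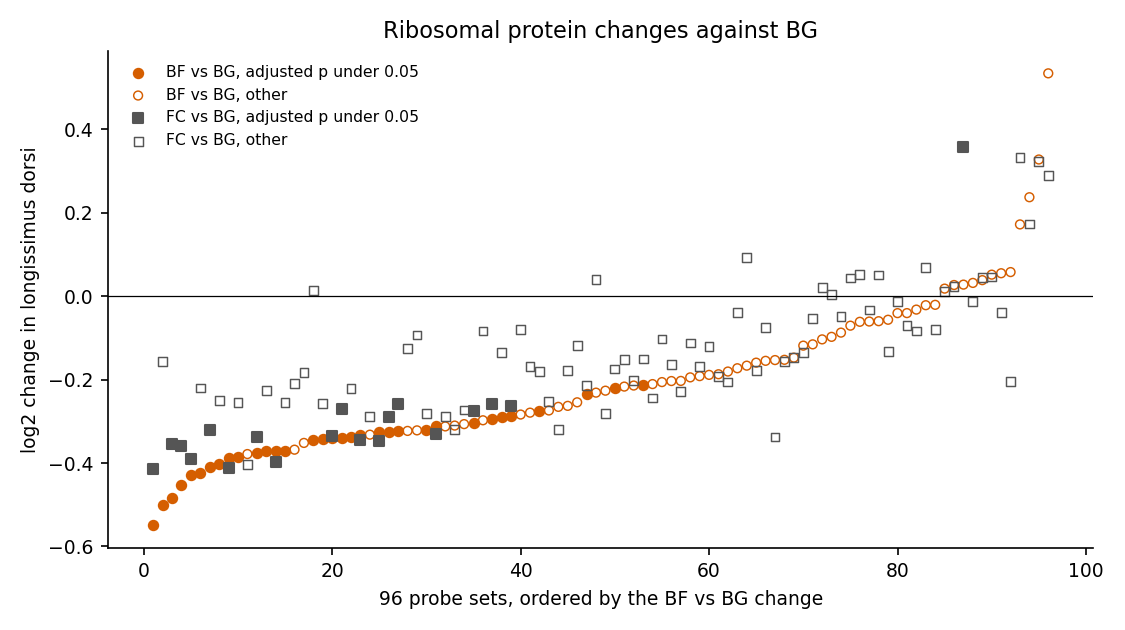
Log2 change against BG in LD (vertical axis) of the 96 probe sets, ordered by BF vs. BG (horizontal axis). Circles give BF vs. BG and squares FC vs. BG, filled where the adjusted p is under 0.05. The 33 filled circles all lie below 0, as do 18 of the 19 filled squares, and both comparisons share the BG arrays.

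Few members passed between flown and FC mice. In BF vs. FC, 1 member was lower (Rpl22), against 1.6% of all probe sets, and 0 were higher (0 at an unadjusted p under 0.05 as well), against 2.06%. The median log2 change was -0.039, against -0.026 for all probe sets. For Rps19 the change was -0.13 (standard error 0.0858, adjusted p = 0.488), and for Rpl11 -0.04 (standard error 0.0805, adjusted p = 0.903).

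Leaving out single LD arrays changed these counts. In BF vs. BG 20 to 35 members were lower, with 21 without BF LD 4, 20 without BF LD 5 and 20 without BG LD 1. Of all probe sets, 2.12%, 2.25% and 1.78% were lower in those fits, against 3.83% with all arrays. For FC vs. BG 9 to 27 were lower, with 9 without BG LD 1 and 10 without FC LD 2. There, 0.813% and 1.14% of all probe sets were lower, against 2.16% with all arrays. Without BG LD 3 the counts were highest, at 35 and 27, against 2.88% and 2.03% of all probe sets. Without BG LD 5, the array of widest spread, 31 and 17 were lower, against 7.62% and 5.69% of all probe sets, and 3 and 4 were higher.

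Among markers of other cells, those of macrophages, mast cells, neutrophils and lymphocytes had their highest mean levels of LD in a BG array. The mean of 16 macrophage markers was 7.93, 7.88, 7.38, 7.42 and 9.48 in the BG LD arrays, 6.72 to 8.11 in BF and 6.96 to 7.91 in FC. Of these markers 0 were lower in BF vs. BG (median log2 change -0.66) and 1, Lyz2, in FC vs. BG (median -0.66). BG LD 5 had the highest level of macrophage, mast cell and neutrophil markers, and the counts without it are given above. The mean of 8 mast cell markers was 5.48 to 7.21 in BG, 5.11 to 5.60 in BF and 5.16 to 5.59 in FC, with 2 markers lower in BF vs. BG and 3 in FC vs. BG. The mean of 7 neutrophil markers was 5.35 to 5.70 in BG, 5.23 to 5.38 in BF and 5.02 to 5.52 in FC, and that of 10 lymphocyte markers 5.21 to 5.41, 5.09 to 5.27 and 5.11 to 5.33. None of these markers passed the test in BF vs. BG or FC vs. BG, with medians of -0.071 and -0.14 for neutrophils and -0.083 and -0.078 for lymphocytes. Of 10 fibroblast markers 3 were lower in BF vs. BG and 1 in FC vs. BG. Markers of skeletal muscle fibres had a median change of 0.03 and 0.02, with 0 of 14 past the test in either comparison. The part of these cells in the lower values of ribosomal proteins was not tested.

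Ribosomal proteins have many processed pseudogenes, so the counts were also split by kind of probe set. Cross-hybridization itself was not tested. Of the members, 40 had the suffix _x_at and 2 _s_at, which mark probes that may also match other transcripts. Among the 54 without these suffixes, 19 were lower in BF vs. BG and 12 in FC vs. BG. A further 102 probe sets, which name a ribosomal protein among several genes, were not members. Of these, 22 were lower and 0 higher in BF vs. BG, with a median log2 change of -0.20, and 11 were lower and 0 higher in FC vs. BG. By brightness, 32 of the 77 members at or above the median level of all probe sets were lower in BF vs. BG. Of the 19 members below it, 1 was lower. Of all probe sets at or above that level, 5.71% were lower. The share was 1.64% in the dimmest 2262 of all probe sets and 10.3% in the brightest 2263. A split by brightness was thus also present among all probe sets, and is not particular to the members.

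Rpl22, an RNA-binding protein of the large subunit, was the member gene with probe sets past the test in opposite directions in LD. Its first probe set, at 11.51, 11.47, 11.15, 11.44 and 11.34 in BG, 11.06, 11.09, 10.96, 10.96 and 10.90 in BF and 11.09, 10.62, 11.07, 10.95 and 11.12 in FC, was lower outside BG. The changes were -0.39 (standard error 0.094, adjusted p = 0.0115) in BF vs. BG and -0.41 (standard error 0.094, adjusted p = 0.01) in FC vs. BG. Its second probe set, of suffix _s_at, was at 9.53, 9.53, 9.58, 9.58 and 9.22 in BG, 9.43, 9.38, 9.66, 9.65 and 9.45 in BF and 9.58, 10.004, 9.83, 9.94 and 9.88 in FC. FC was the highest group here. The log2 changes were 0.03 (standard error 0.0928, adjusted p = 0.89) in BF vs. BG, 0.36 (standard error 0.0928, adjusted p = 0.0199) in FC vs. BG and -0.33 (standard error 0.0928, adjusted p = 0.0489) in BF vs. FC. Without FC LD 2, the adjusted p was 0.0608 in FC vs. BG. The call in BF vs. FC was lost in 8 of 10 fits that each left out 1 array, with adjusted p up to 0.12. Without BG LD 5, the lowest BG array, the change in FC vs. BG was 0.29 (adjusted p = 0.0293). The data do not tell which of both probe sets follows the level of the Rpl22 mRNA.

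Some ribosomal proteins have paralogs that replace them in certain tissues. Rpl3l takes the place of Rpl3 in striated muscle. No probe set named Rpl3 alone, so the exchange itself could not be followed. Rpl3l was at 11.30, 11.53, 11.72, 11.63 and 11.53 in BG LD, 11.45, 11.53, 11.91, 11.80 and 11.89 in BF LD and 11.62, 12.03, 12.10, 11.92 and 11.72 in FC LD. In TN it was at 10.45, 10.33 and 10.36 in BG, 10.66, 10.41 and 10.32 in BF and 10.55 and 10.47 in FC. Every LD array was above every TN array, and the groups overlapped within LD. The log2 changes in LD, 0.17 (standard error 0.111, adjusted p = 0.36) in BF vs. BG and 0.33 (standard error 0.111, adjusted p = 0.0631) in FC vs. BG, did not pass.

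Rps27l, the paralog of Rps27 and a target of p53, was at 11.91, 11.83, 11.73, 11.98 and 11.73 in BG LD, 11.31, 11.39, 11.39, 11.46 and 11.37 in BF LD and 11.38, 11.54, 11.50, 11.47 and 11.51 in FC LD. BG lay above the other groups without overlap. The change was -0.45 (standard error 0.0934, adjusted p = 0.00385) in BF vs. BG and -0.36 (standard error 0.0934, adjusted p = 0.0202) in FC vs. BG. The adjusted p of the latter was 0.0554 without BG LD 1 and 0.0617 without BG LD 4. In TN it was at 11.56, 11.65 and 11.48 in BG, 11.18, 11.75 and 11.16 in BF and 11.06 and 11.08 in FC. BF TN 2 stood above the other BF arrays there. These values are of a probe set of suffix _x_at, which marks probes that may also match other transcripts. Of the 3 probe sets of Rps27l the other 2 did not pass in LD (log2 changes of -0.31 and -0.31 in BF vs. BG). The only probe set without that suffix was among them. Rps27 itself, at a mean of 6.43, changed by -0.15 in BF vs. BG (adjusted p = 0.323). Rpl39l and Rps4l were dim, with means of 4.31 and 5.92. Rpl39l changed by -0.37 (standard error 0.189, adjusted p = 0.234) and Rps4l by -0.38 (standard error 0.167, adjusted p = 0.158) in BF vs. BG. In TN the group means of Rpl39l were 4.22 (BG), 4.14 (BF) and 4.003 (FC), and those of Rps4l were 6.09, 6.02 and 5.63.

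In TN few members passed. In BF vs. BG 3 were lower (2 probe sets of Rpl13a and Rpl14), against 0.473% of all probe sets, and 0 were higher (0 at an unadjusted p under 0.05), against 0.354%. The median log2 change was -0.14, against 0.018 for all probe sets. In FC vs. BG 6 members were lower (2 of Rpl13a, 2 of Rps27l, Rpl35 and Rps7), or 6.25% against 4.33% of all probe sets, and 0 were higher (2 at an unadjusted p under 0.05), against 5.13%. The median was -0.13, against 0.019. Without moderation of the variance these counts of higher members, and those of BF vs. BG and BF vs. FC of LD, were 0 too. In BF vs. FC, where 1.08% of all probe sets were lower and 1.16% higher, 0 members passed in either direction (6 lower and 3 higher at an unadjusted p under 0.05, and 0 without moderation). Both comparisons with BG share the 3 BG arrays.

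A probe set of Rpl13a was at 11.22, 10.87 and 10.14 in BG, 9.43, 9.83 and 9.46 in BF and 9.74 and 10.29 in FC in TN. All BF arrays were below all BG arrays, which were themselves widely spread. The change was -1.17 (standard error 0.214, adjusted p = 0.0136) in BF vs. BG, the only one of a member past 2-fold in a comparison of housing. A brighter probe set of the gene, at 13.35, 13.30 and 13.10 in BG, 12.82, 13.10 and 12.90 in BF and 12.79 and 12.77 in FC, changed by -0.31 (standard error 0.0974, adjusted p = 0.128) and, in FC vs. BG, by -0.47 (standard error 0.109, adjusted p = 0.0106). The 4 probe sets of Rpl13a thus differed in the size of the change. Rpl14 was at 7.40, 7.40 and 7.14 in BG, 6.80, 6.49 and 6.79 in BF and 7.12 and 7.09 in FC. The change in BF vs. BG was -0.62 (standard error 0.134, adjusted p = 0.0271) in TN and -0.34 (standard error 0.103, adjusted p = 0.0366) in LD, with 0.01 (standard error 0.103, adjusted p = 0.952) in FC vs. BG of LD.

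In FC vs. BG of TN, Rpl35 was at 13.21, 13.21 and 13.17 in BG and 12.81 and 12.83 in FC, and changed by -0.38 (standard error 0.111, adjusted p = 0.0339). Rps7 was at 12.60, 12.64 and 12.38 in BG and 11.95 and 12.02 in FC, and changed by -0.56 (standard error 0.165, adjusted p = 0.0359). Rps27l changed by -0.49 (standard error 0.135, adjusted p = 0.0248). These calls rest on 2 FC arrays. With BF TN 2 left out 10 members were lower in FC vs. BG, with FC TN 1 or FC TN 2 left out 0, with BG TN 1 left out 2 and with BG TN 2 left out 1. In BF vs. BG of TN the count was 0 without BF TN 1, BF TN 3 or BG TN 1, 1 without BG TN 2, 2 without BG TN 3 and 10 without BF TN 2.

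Whether flight acted differently in both muscles was tested by the difference of BF vs. BG between LD and TN. Of the members 0 passed in either direction (8 lower in LD and 2 higher at an unadjusted p under 0.05, and 1 lower without moderation), and of all probe sets 0.0133% passed as lower and 0.159% as higher. The median of the member differences was -0.10, against -0.030 for all probe sets. For Rps19 the difference was -0.40 (standard error 0.14, adjusted p = 0.255), and for Rpl13a, with its most changed probe set, 0.90 (standard error 0.271, adjusted p = 0.184).

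The largest differences lay between the muscles. In ground mice (BG and FC), 76 of the 96 members were lower in LD than in TN, for 39 genes, against 22.9% of all probe sets, and 8 were higher, against 41.4%. The median log2 difference was -0.48, against 0.16 for all probe sets. With the median of each array set equal, 66 were lower and 12 higher, and without FC TN 1, 71 were lower and 4 higher. Mitochondrial ribosomal proteins, which serve the ribosomes that translate the mitochondrial genome, went the other way, with 4 of 127 probe sets lower and 97 higher and a median of 0.49. The 102 probe sets naming several genes had 86 lower and 5 higher. The comparison sets a muscle against a tongue sample with epithelium, whose markers differed as given above. Markers of other cells differed too. Those of adipocytes were higher in LD (5 of 5), and those of Schwann cells (4 of 4) and mast cells (5 of 8) were lower. The part of epithelium and of these other cells was not tested.

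A dim probe set of Rpl41, the smallest ribosomal protein, was at 5.94 to 6.56 in BG TN and 4.61 to 4.96 in BG LD. Its log2 difference was -1.44 (standard error 0.101, adjusted p = 2.89e-11), while those of its 3 other probe sets ranged from -0.92 to -0.54. Rps19 was lower in LD by -0.84 (standard error 0.0754, adjusted p = 1.87e-09), and the probe set of Rpl13a with the largest difference by -2.11 (standard error 0.146, adjusted p = 1.93e-11), or 4.32-fold. The 3 other probe sets of Rpl13a differed by -0.88 to -0.69. Rplp0, Rplp2 and Rps6 were lower in LD as well, by -0.49, -0.57 and -0.58 (adjusted p = 1.72e-07, 4.92e-05 and 3.33e-06).

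Among the members that were higher in LD, Rpl3l differed most, by 1.26 (standard error 0.0977, adjusted p = 1.44e-10), or 2.4-fold. Rps27l was higher in LD with 2 of 3 probe sets, both of suffix _x_at (0.34 and 0.25, adjusted p = 0.00114 and 0.0246). The second had an adjusted p of 0.0636 without BG TN 3. Its difference was 0.267 without FC TN 1 and 0.23 without FC TN 2, each leaving 1 FC array. The _s_at probe set of Rpl22 was higher by 0.29 (standard error 0.0815, adjusted p = 0.00424), while its other probe set was lower by -0.43 (standard error 0.0825, adjusted p = 0.000118). Probe sets of Rps4x (0.78), Rpl39l (0.38), Rps20 (0.36) and Rps6 (0.31) that were higher in LD had means of 4.31 to 5.57, and the brighter probe sets of Rps4x, Rps20 and Rps6 were lower in LD, by log2 differences of -0.59, -0.37 and -0.36, and -0.58.

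**Figure D4:**
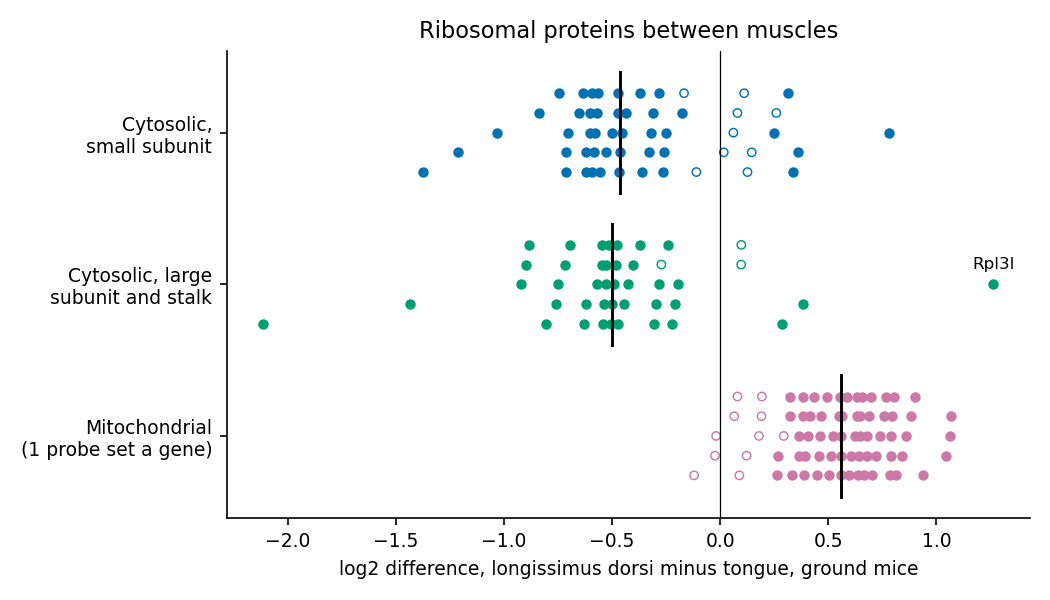
Log2 difference between LD and TN of ground mice (horizontal axis) of cytosolic ribosomal protein probe sets by subunit and of mitochondrial ribosomal proteins with 1 probe set per gene. Each point is 1 probe set, filled where the adjusted p is under 0.05, spread vertically for legibility, and lines give medians. Most cytosolic members lie below 0 and most mitochondrial ones above, with Rpl3l at 1.26.

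**Figure D5:**
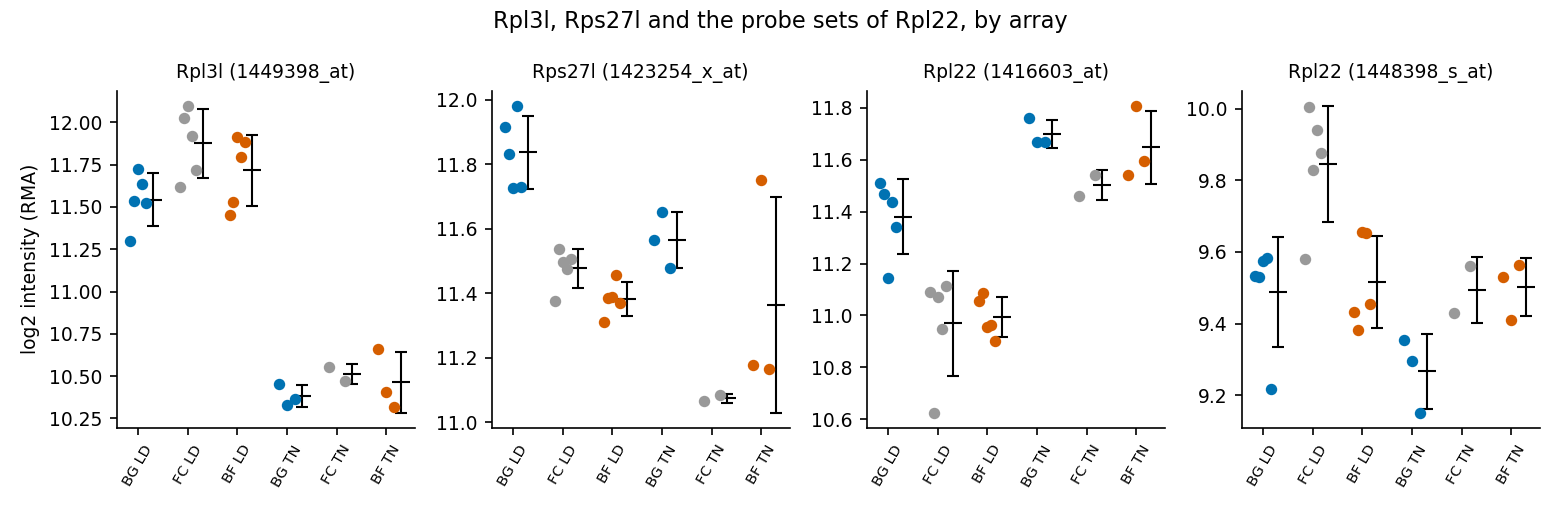
Log2 intensity (RMA, vertical axis) in all 6 groups of Rpl3l, of an _x_at probe set of Rps27l and of both probe sets of Rpl22. Each point is 1 array, and the bars give mean and SD. Rpl3l is higher in every LD array than in every TN array, and the probe sets of Rpl22 order the LD groups differently.

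The mitochondrial ribosomal proteins were also lower in part in LD of flown mice. Of 127 probe sets 18 (14.2%) were lower, against 3.83% of all probe sets, and 1 higher in BF vs. BG, with a median log2 change of -0.15. For FC vs. BG 4 (3.15%) were lower, near the 2.16% of all probe sets, and 2 higher. In TN they had 26 lower (20.5%), against 4.33% of all probe sets, and 1 higher in FC vs. BG. The difference between cytosolic and mitochondrial proteins was not tested. Fau, which is made as a fusion with a ribosomal protein, changed by -0.28 in BF vs. BG (adjusted p = 0.0653).

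Other genes of translation were read on 1 probe set per gene, the brightest. Among all probe sets at or above the median level, 5.71% were lower and 10.2% higher in BF vs. BG of LD, and 2.95% and 11.6% in FC vs. BG, and several of the counts below lie near these shares. Of 10 genes listed under elongation, among which Eef1e1 is not itself an elongation factor, 1 was lower and 2 were higher in LD in BF vs. BG. Eef2, the translocase, rose by 0.41 (adjusted p = 0.0284) and Eef1a2, the elongation factor of muscle and neurons, by 0.34 (adjusted p = 0.0388), while Eef1e1 fell by 0.61 (adjusted p = 0.00938). Of 29 genes of initiation 1 was lower and 3 were higher, with Eif3a rising by 0.50 (adjusted p = 0.000275) and Eif4g3 by 0.56 (adjusted p = 0.00459), and Eif3i falling (log2 change -0.30, adjusted p = 0.0124). Of 46 genes of ribosome assembly and RNA polymerase I, 4 were lower and 7 higher. Rrs1, an assembly factor, rose by 0.76 (adjusted p = 0.000152), nucleolin (Ncl) by 0.54 (adjusted p = 0.00161) and Nolc1 by 0.42 (adjusted p = 0.0127).

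Of 19 genes of mTORC1 signalling and of the control of TOP mRNAs, 1 was lower and 5 were higher in BF vs. BG. Sesn1, an inhibitor of mTORC1, rose by 1.12 (adjusted p = 2.08e-05), Eif4ebp1, which blocks cap-dependent initiation until mTORC1 phosphorylates it, by 0.83 (adjusted p = 0.00513), and Larp1, which binds TOP mRNAs, by 0.44 (adjusted p = 0.0204). In FC vs. BG 0 of the 19 were lower and 4 higher, among them Tsc2 (0.43, adjusted p = 0.00943), Larp1 (0.44, adjusted p = 0.0235) and Mtor (0.40, adjusted p = 0.0267). Elongation had 1 lower and 2 higher in FC vs. BG, initiation 1 and 6, and assembly 0 and 4. Between the muscles, elongation had 3 lower and 4 higher in LD, initiation 10 and 11, assembly 14 and 12, and mTORC1 signalling 6 and 9. Of all probe sets at or above the median level, 28.3% were lower and 44% higher. Among single genes, the elongation factor Eef1a1 was lower in LD by a log2 difference of -1.52 (adjusted p = 4.63e-10). Pabpc4 was higher by 0.85 (adjusted p = 7.16e-10). The poly(A)-binding protein Pabpc1, itself encoded by a TOP mRNA, was lower by -1.76 (adjusted p = 3.42e-12).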

How the data were processed

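RNA of 15 LD and 8 TN samples was hybridized to 23 Affymetrix 3′ expression arrays, 1 per sample. The authors made the deposited log2 values from the scanned intensities with RMA in Partek Genomics Suite (background correction, quantile normalization, median polish). RMA shrinks changes of dim probe sets, and quantile normalization removes shifts common to an array. Groups came from the sample labels, which name no batch. The unfiltered 22626 probe sets were fitted with limma 3.58.1 (R 4.3.3) in 1 model of 6 groups (17 residual and 5.12 prior degrees of freedom), with Benjamini-Hochberg adjustment across the whole table. A member counted as lower or higher at an adjusted p under 0.05. The 2-fold limit of the study's methods is given beside the counts. The p-values measure the spread between samples of a group, each array taken as 1 sample, and the number of arrays limits their precision. Of the probe sets 20380 name 1 gene, 691 several and 1555 none.

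The members, lists and tests were chosen with earlier results of these data known. Named genes are the 8 with the smallest adjusted p in BF vs. BG and in FC vs. BG of LD, the 4 with the smallest in the other comparisons, the paralogs, the stalk proteins, Rps6 and Rpsa, and genes that went against the rest, with up to 3 genes per list. Further members were named after their values were seen. Alternatives were each muscle alone, no moderation (the methods' test), trend and robust moderation, brighter probe sets, quantile normalization within a muscle, centring of each array, weighting of arrays, a block for the replicate number, the brightest probe set of each gene, members without _s_at and _x_at, and leaving out each array. Leaving out the arrays of widest spread, and counting probe sets of several genes, were alternatives chosen after seeing the data. The procedure was tested on simulated data. Start sites came from RefSeq (GRCm38.p6) and the figures from Python 3.11.15 with matplotlib 3.10.9.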

Additional observations from a re-analysis of the deposited data

Results flagged for a closer look

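Among 75 groups of 5 LD arrays, 3 held an array whose gap to its nearest neighbour was a large share of the range of the group, above the limit of 0.71 for 5 arrays. About 1 in 20 groups passes this limit by chance. All were BG LD groups. For Rplp2 the share was 0.729, with BG LD 5 at 13.37 against 12.60 to 12.81 in the others. For Rpl11 it was 0.725, with BG LD 3 at 11.94 against 12.15 to 12.23. For the _s_at probe set of Rpl22 it was 0.857, with BG LD 5 at 9.22 against 9.53 to 9.58.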

How the results depend on the processing

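The alternatives were run for 33 of the named changes that passed, those that the naming rule gave, and not for the other members and list genes named. Of the 33, 22 kept direction and call under every alternative and 0 reversed. The others each lost the call under some. In TN each of the 6 named housing changes lost it in 4 or 5 of the settings, with adjusted p up to 0.262. The median log2 change of the members stayed between -0.27 and -0.20 in BF vs. BG of LD, -0.20 and -0.14 in FC vs. BG of LD, and -0.51 and -0.38 between the muscles. Few arrays per group, mainly in TN, limit what could be detected, and the cause of the shifts below was not tested except where fewer probe sets were counted.

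With each muscle fitted alone, members lower were 0 in BF vs. FC of LD, and 0 in BF vs. BG and 0 in FC vs. BG of TN. Without moderation, 11 were lower in FC vs. BG of TN and 1 in the difference between muscles of BF vs. BG. With trend and robust moderation, and likewise with median centring, 0 were lower in BF vs. FC of LD. With median centring the median in FC vs. BG of TN was -0.18. Among the brighter probe sets 2 were higher in FC vs. BG of LD, 10 lower in FC vs. BG of TN (median -0.17) and 4 higher between muscles. Quantile normalization within a muscle gave a median of -0.098 in FC vs. BG of TN. With array weights 3 were higher in BF vs. BG and 2 in FC vs. BG of LD, 3 lower in BF vs. FC of LD, 14 lower in BF vs. BG, 23 lower and 2 higher in FC vs. BG (median -0.17) and 3 lower in BF vs. FC of TN, and 1 lower and 2 higher in the difference between muscles.

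Whether replicate numbers pair the samples was not tested. Same-number correlations ranged from -0.22 to 0.55 in LD, with a median of 0.11 against -0.044 for other pairs. In TN they ranged from -0.098 to 0.38, with a median of 0.095 against -0.055. With the replicate block 31 were lower in BF vs. BG and 18 lower and 2 higher in FC vs. BG of LD, 0 lower in BF vs. FC of LD and 10 lower in FC vs. BG of TN. The block lies within a muscle, so the comparison between muscles could not be fitted with it.

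With 1 probe set per gene 18 were lower in BF vs. BG, 9 lower and 0 higher in FC vs. BG and 0 lower in BF vs. FC of LD, 1 lower in BF vs. BG and 2 in FC vs. BG of TN, and 39 lower and 2 higher between muscles. Without _s_at and _x_at, 19 were lower in BF vs. BG, 0 higher in FC vs. BG and 0 lower in BF vs. FC of LD, 3 lower in FC vs. BG of TN, and 40 lower and 4 higher between muscles. Without the arrays of widest spread (BF LD 1, BG LD 5 and FC LD 1), 3 were higher in BF vs. BG and 5 in FC vs. BG of LD, and 1 in the difference between muscles. Probe sets of several genes, counted in place of the members, gave 11 lower and 0 higher in FC vs. BG and 0 lower in BF vs. FC of LD, 1 lower in BF vs. BG, 1 higher in FC vs. BG (median -0.042) and 1 higher in BF vs. FC of TN, and 5 higher between muscles.

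With each array of the compared groups left out in turn, members lower ranged from 20 to 35 in BF vs. BG, 9 to 27 in FC vs. BG and 0 to 2 in BF vs. FC of LD, 0 to 10 in BF vs. BG and 0 to 6 in FC vs. BG of TN, and 71 to 76 between muscles. Members higher ranged from 0 to 3 in BF vs. BG and 0 to 4 in FC vs. BG of LD, 0 to 1 in FC vs. BG of TN, 4 to 8 between muscles and 0 to 1 in the difference between muscles. The median in FC vs. BG of TN ranged from -0.18 to -0.13. All groups share 1 estimate of the spread, so arrays outside a comparison count too: without BF TN 2, 36 members were lower in BF vs. BG of LD and 10 in FC vs. BG of TN. Of all probe sets, 4.23% and 5.08% were then lower. Where 1 FC array of TN was left, it was assumed to vary like the other groups.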
